A study of Homo sapiens with 24 samples.

Results

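RNA from the nucleus was compared with RNA from the cytoplasm of control RKO-iCas9 cells under cycloheximide. The members are the 6 libraries of these cells, 3 nuclear and 3 cytoplasmic, out of 24 in the series, chosen by their labels alone. RKO is a human colon carcinoma line, and the iCas9 derivative expresses Cas9 from a doxycycline-inducible transgene. All cells of the 6 libraries carried sgAAVS1, a guide against a safe-harbour locus that serves as the control for guides against genes, and received 100 ng/mL doxycycline for 5 days and then 25 µg/mL cycloheximide (CHX, dissolved in DMSO) for 4 h. The same control cells given DMSO in place of CHX (3 nuclear and 3 cytoplasmic libraries) were used to ask which differences between the fractions changed with the drug. Cells carrying a guide against ERH make up the rest of the series. Each culture was split with a mild detergent buffer into a nuclear and a cytoplasmic fraction, and poly(A) RNA was sequenced from each. The data come from 1 cell line. The labels call the 3 cultures of a treatment biological replicates, and whether they were seeded independently is not stated. The p-values therefore set the difference between the fractions against its spread over these cultures and those given DMSO. For genes, that spread was estimated more from all genes together than from each gene (12.1 against 4 degrees of freedom).

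A gene is transcribed in the nucleus, its introns are removed there, and the mature mRNA is exported through nuclear pores to meet ribosomes in the cytoplasm. Some polyadenylated RNAs remain in the nucleus, among them scaffolding long non-coding RNAs and transcripts that keep one or more unspliced introns, called detained introns when the transcript stays in the nucleus. Cycloheximide stops ribosomes during elongation. Because nonsense-mediated decay (NMD) needs a translating ribosome to recognise a premature stop, its targets, which include many transcripts with a retained intron or a poison exon, are spared in the cytoplasm while the drug is present. Cycloheximide also stabilises and induces immediate early transcripts.

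The nuclear libraries held 27849344 to 31138239 and the cytoplasmic libraries 49705191 to 72946068 counts assigned to transcripts, so the nuclear values rest on fewer reads. Levels are given as CPM, the counts of a gene per 1000000 counts of its library, scaled between libraries by the trimmed mean of M values (TMM). No spike-in was used, so a level is a share of the RNA of its fraction. A gene that is higher in the nucleus takes a larger share of nuclear than of cytoplasmic RNA, and the number of molecules in each compartment cannot be derived from it. In bulk RNA, fewer cells that use a gene and less RNA per cell cannot be told apart.

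The fractions matched their labels. MALAT1 and NEAT1, long non-coding RNAs of nuclear speckles and paraspeckles, are given as examples of nuclear RNAs, chosen after their values were seen. MALAT1 had 5254, 5376 and 5970.0 CPM in the 3 nuclear and 232, 194 and 240.3 CPM in the 3 cytoplasmic libraries, and NEAT1 had 4451, 4275 and 4589 CPM in the 3 nuclear and 116, 105 and 128 CPM in the 3 cytoplasmic libraries. The fractions did not overlap for either gene. Of the 13 mRNAs encoded in mitochondria, which stay with the cytoplasmic fraction, 12 were higher in the cytoplasm, and together the 13 made up 0.379% ± 0.0467 of nuclear counts and 2.87% ± 0.105 of cytoplasmic counts. For every 100 spliced reads there were 38 to 39.2 reads crossing an exon-intron boundary in the nuclear libraries and 7.14 to 7.2 in the cytoplasmic libraries. Transcripts annotated as retaining an intron took 24.1% ± 0.339 of nuclear counts and 2.67% ± 0.0216 of cytoplasmic counts of protein-coding genes. Markers of colon epithelium were partly absent: of 12 listed, 4 passed the filter on low counts, KRT18 and KRT8 at the highest levels, while CDX1 and KRT20 were at 0 in all 6 libraries. PTPRC and CD3E, markers of leukocytes, were at or near 0. Of the same list, ITGAM had 16.3, 13.3 and 15.6 CPM in the 3 nuclear and 0.52, 0.603 and 0.706 CPM in the 3 cytoplasmic libraries, and LYZ had 14.7 CPM in 1 nuclear library and 0 in the other 5. The fibroblast list summed to 9.72 to 11.2 CPM in nuclear and 27.3 to 30.1 CPM in cytoplasmic libraries, most of it from VIM. The leukocyte list summed to 152 to 172 CPM in nuclear and 282 to 292 CPM in cytoplasmic libraries, most of it from CD68, which many cells use.

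**Figure D1:**
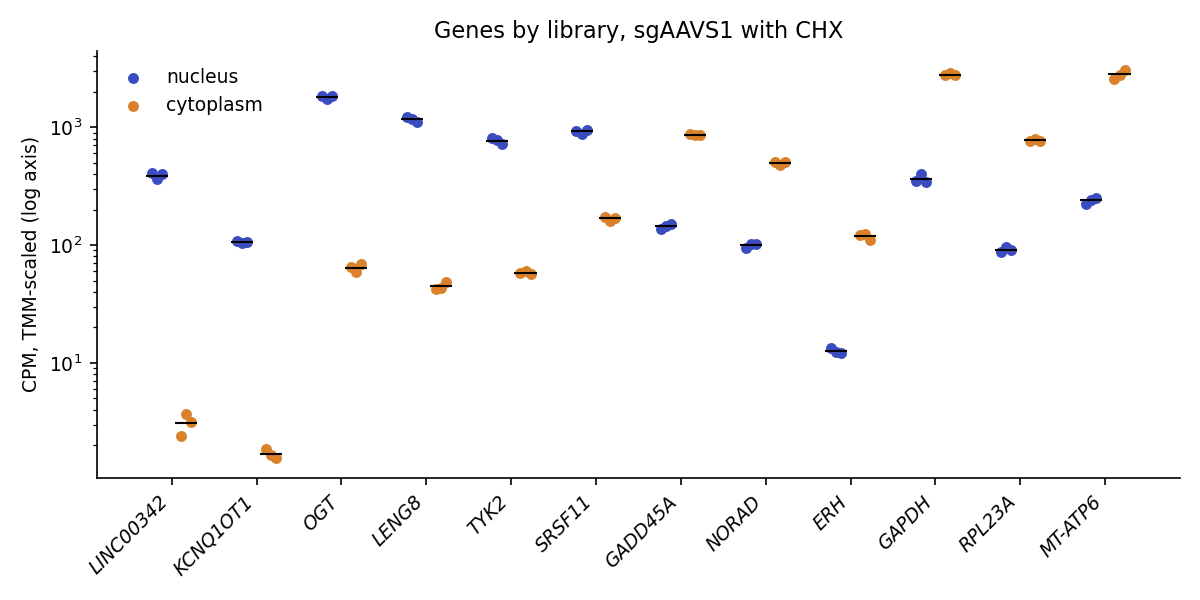
Level of 12 genes in each library of control cells with CHX, in TMM-scaled CPM on a log axis, with nuclear libraries in blue, cytoplasmic libraries in orange and a line at the mean of the 3. LINC00342 stood at 388 CPM in the nucleus and 3.08 CPM in the cytoplasm, MT-ATP6 at 239 and 2803 CPM, and the fractions overlap for none of the 12.

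Most expressed genes differed between the compartments. Of 17055 genes that passed the filter on low counts, 5203 (30.5%) were higher in the nucleus and 4769 (28%) higher in the cytoplasm at an adjusted p of at most 0.05 and a log2 fold change of at least 1 in either direction, 58.5% in all. For 86.7% of genes the libraries of the 2 fractions did not overlap. The median log2 fold change, nucleus over cytoplasm, was 0.02. Gene classes stood apart. Of 3226 long non-coding genes tested, 1650 were higher in the nucleus and 449 in the cytoplasm (median 1.51), and long non-coding genes took 5.62% ± 0.0959 of nuclear counts and 1.39% ± 0.0176 of cytoplasmic counts. Of 12704 protein-coding genes, 2924 were higher in the nucleus and 4096 in the cytoplasm (median -0.28). Scaling choices other than TMM on all tested genes placed the median of all genes at up to 0.22 towards the nucleus, which moves every gene alike. The 0.22 came from scaling on protein-coding genes.

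Long non-coding RNAs listed as nuclear were mostly on the nuclear side. Of 23 listed, 20 were tested, and 15 were higher in the nucleus, 1 was higher in the cytoplasm and 4 passed in neither direction (median 2.43). The nuclear share was 75%, beside 30.5% of all genes and 51.1% of all long non-coding genes tested (median 1.51). Much of this trend was thus shared by the whole class. LINC00342 had 407, 361 and 397 CPM in the 3 nuclear and 2.38, 3.66 and 3.19 CPM in the 3 cytoplasmic libraries (log2 fold change 6.99 ± 0.10 (SE), adjusted p = 1.0e-18). KCNQ1OT1, an antisense RNA that silences neighbouring imprinted genes, had 108, 104 and 107 CPM in the 3 nuclear and 1.86, 1.65 and 1.55 CPM in the 3 cytoplasmic libraries (log2 fold change 5.98 ± 0.11 (SE), adjusted p = 9.4e-18). Both were separated from the cytoplasm by every library, although KCNQ1OT1 lies opposite its host gene and the strand setting of the gene counting is not given. MIR34AHG, the host transcript of a p53-induced microRNA, was also higher in the nucleus (log2 fold change 5.58 ± 0.14 (SE), adjusted p = 2.4e-16). PRKCQ-AS1 was the exception on the cytoplasmic side (log2 fold change -1.10 ± 0.14 (SE), adjusted p = 1.8e-06), a call lost under 6 of the alternatives tried. OIP5-AS1 had 50.6 ± 2.17 CPM in the nucleus and 78.4 ± 4.4 CPM in the cytoplasm (mean ± SD, n = 3) and stayed below the fold threshold.

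Long non-coding RNAs known for cytosolic roles lay on the other side. Of 12 tested, 7 were higher in the cytoplasm and the other 5 passed in neither direction (median -1.2). The cytoplasmic share was 58.3%, beside 28% of all genes and 13.9% of all long non-coding genes tested. With DMSO the median of the list was -0.34, so its lean towards the cytoplasm was weaker without the drug. Between the treatments, 6 of the 12 moved towards the cytoplasm with CHX and 0 towards the nucleus. NORAD, which binds Pumilio proteins in the cytoplasm, had 95.2, 101 and 101 CPM in the 3 nuclear and 509, 478 and 503 CPM in the 3 cytoplasmic libraries (log2 fold change -2.32 ± 0.05 (SE), adjusted p = 6.2e-17). ZFAS1, a host of small nucleolar RNAs, had 31.2, 34.9 and 32.2 CPM in the 3 nuclear and 203, 200.1 and 191 CPM in the 3 cytoplasmic libraries (log2 fold change -2.6 ± 0.06 (SE), adjusted p = 8.0e-17). ZFAS1 overlaps other annotated genes on both strands, and reads shared with them could not be told apart.

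Genes named for detained introns had the highest median among the lists of protein-coding genes. Of 48 tested, 40 were higher in the nucleus, 1 was higher in the cytoplasm and 7 passed in neither direction, with a median log2 fold change of 1.79 against 0.02 over all genes. OGT, the enzyme that attaches N-acetylglucosamine to proteins and regulates its own splicing, had 1841, 1727 and 1822 CPM in the 3 nuclear and 64.8, 58.6 and 68.5 CPM in the 3 cytoplasmic libraries (log2 fold change 4.81 ± 0.07 (SE), adjusted p = 7.1e-19). The nuclear level was 1797 CPM on average and the cytoplasmic level 64 CPM. LENG8 had 1215, 1177 and 1108 CPM in the 3 nuclear and 42.2, 43.2 and 48.2 CPM in the 3 cytoplasmic libraries (log2 fold change 4.71 ± 0.06 (SE), adjusted p = 7.0e-19). PAN2, a subunit of a deadenylase, had 371, 334 and 337 CPM in the 3 nuclear and 19.3, 17 and 19 CPM in the 3 cytoplasmic libraries (log2 fold change 4.23 ± 0.06 (SE), adjusted p = 1.4e-18). The single list member called higher in the cytoplasm was GABPB1 (log2 fold change -1.03 ± 0.06 (SE), adjusted p = 2.2e-11), and it fell short of the fold threshold under 7 of the alternatives tried.

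Serine/arginine-rich splicing factors and the kinases that phosphorylate them were split. Of 27 tested, 10 were higher in the nucleus, 2 were higher in the cytoplasm and 15 passed in neither direction (median 0.45). These are 37% and 7.41%, beside 30.5% and 28% of all genes tested. The nuclear share was thus somewhat above that of all genes and the cytoplasmic share well below it. The kinase CLK2 had 292, 275 and 281 CPM in the 3 nuclear and 46.1, 45.6 and 44.6 CPM in the 3 cytoplasmic libraries (log2 fold change 2.64 ± 0.05 (SE), adjusted p = 1.4e-17). SRSF11 (log2 fold change 2.45 ± 0.06 (SE), adjusted p = 1.1e-16) and the speckle scaffold SRRM2 (log2 fold change 2.04 ± 0.05 (SE), adjusted p = 1.6e-16) were next. On the cytoplasmic side, SRSF8, a retrocopy, had 9.84, 12.7 and 10.5 CPM in the 3 nuclear and 53.1, 56.2 and 57.9 CPM in the 3 cytoplasmic libraries (log2 fold change -2.35 ± 0.08 (SE), adjusted p = 1.2e-14). SRSF3 was higher in the cytoplasm by less (log2 fold change -1.12 ± 0.04 (SE), adjusted p = 1.8e-13), just past the fold threshold, and fell below it under 4 of the alternatives tried. Over coding transcripts alone it stood at -2.90, with 70.6% ± 0.581 of the nuclear and 6.42% ± 0.224 of the cytoplasmic counts in retained-intron transcripts.

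mRNAs for abundant cytosolic proteins took a smaller share of nuclear RNA. Of 79 genes for cytosolic ribosomal proteins, 78 were higher in the cytoplasm (median -2.49), and RPS29 alone did not reach the fold threshold (log2 fold change -0.92 ± 0.09 (SE), adjusted p = 7.9e-08). RPL23A had 86.7, 96.3 and 90.2 CPM in the 3 nuclear and 770.3, 793 and 763 CPM in the 3 cytoplasmic libraries (log2 fold change -3.09 ± 0.05 (SE), adjusted p = 7.3e-18). Of 21 housekeeping mRNAs, 20 were higher in the cytoplasm (median -2.61). GAPDH, a glycolytic enzyme, had 349.7, 397 and 345 CPM in the 3 nuclear and 2749.6, 2854 and 2759 CPM in the 3 cytoplasmic libraries (log2 fold change -2.94 ± 0.05 (SE), adjusted p = 4.1e-18), and TUBB, a beta tubulin, was also separated (log2 fold change -3.18 ± 0.05 (SE), adjusted p = 5.4e-18). VCL, which encodes the adhesion protein vinculin, was the exception, with 400.0 ± 13.1 CPM in the nucleus and 344 ± 0.739 CPM in the cytoplasm. Among mitochondrially encoded mRNAs, MT-ATP6, a subunit of ATP synthase, had 225, 243 and 249.9 CPM in the 3 nuclear and 2586, 2779.8 and 3044 CPM in the 3 cytoplasmic libraries (log2 fold change -3.55 ± 0.06 (SE), adjusted p = 1.1e-17). MT-ND6, whose mRNA is encoded on the strand opposite to the rest, had 7.91, 12.7 and 13.8 CPM in the 3 nuclear and 10.3, 6.97 and 6.29 CPM in the 3 cytoplasmic libraries, and the fractions overlapped. The respiratory chain genes of the nuclear genome gave 37 of 51 higher in the cytoplasm (median -2.26), with NDUFB1 the 1 call in the nuclear direction (log2 fold change 2.04 ± 0.19 (SE), adjusted p = 2.7e-08), which turned to -2.90 by coding transcripts alone and to -1.36 with an offset for transcript length.

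Immediate early and replication-dependent histone transcripts also lay towards the cytoplasm. Of 49 immediate early genes tested, 2 were higher in the nucleus, 27 were higher in the cytoplasm and 20 passed in neither direction (median -1.34). JUN, a subunit of the AP-1 transcription factor, had 510.4, 566 and 519.7 CPM in the 3 nuclear and 3027, 3259 and 3074 CPM in the 3 cytoplasmic libraries (log2 fold change -2.55 ± 0.05 (SE), adjusted p = 4.6e-17). JUND (log2 fold change -2.75 ± 0.12 (SE), adjusted p = 4.4e-13) and RHOB (log2 fold change -2.47 ± 0.05 (SE), adjusted p = 7.9e-17) were similar. The chemokine genes CXCL3 (log2 fold change 1.51 ± 0.24 (SE), adjusted p = 1.6e-05) and CXCL2 (log2 fold change 1.42 ± 0.42 (SE), adjusted p = 0.0054) were the 2 on the nuclear side, CXCL2 lost its call without CHX replicate 3, and CXCL3 lost its own over coding transcripts alone (0.04, adjusted p = 0.93), with 69.3% of its nuclear counts in transcripts without a coding sequence. Of 44 replication-dependent histone genes tested, of 62 listed, 1 was higher in the nucleus, 27 were higher in the cytoplasm and 16 passed in neither direction (median -1.71). The shares higher in the nucleus were 4.08% of immediate early and 2.27% of histone genes, beside 30.5% of all genes tested. In the cytoplasm the shares were 55.1% and 61.4%, beside 28%. Histone mRNAs end in a stem-loop and mostly lack poly(A), so poly(A) selection recovers few of them. The nuclear call was H2BC15, which turned to -0.13 with an offset for transcript length. H2BC12 had 6.02, 4.16 and 3.38 CPM in the 3 nuclear and 30.3, 31.4 and 28.4 CPM in the 3 cytoplasmic libraries, and H2AC20 and H4C3 stayed under 3 CPM in every library.

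mRNAs translated on the endoplasmic reticulum were not a single group. Of 48 genes for secreted, endoplasmic reticulum and membrane proteins, 14 were higher in the nucleus, 3 were higher in the cytoplasm and 31 passed in neither direction (median 0.37). These are 29.2% and 6.25%, beside 30.5% and 28% of all genes tested, so the nuclear share was near that of all genes and the cytoplasmic share below it. AGRN, which encodes agrin, had 387, 382 and 361 CPM in the 3 nuclear and 29.2, 32 and 31.9 CPM in the 3 cytoplasmic libraries (log2 fold change 3.60 ± 0.06 (SE), adjusted p = 1.9e-18). LAMA5, a laminin chain, had 183, 189 and 173 CPM in the 3 nuclear and 16.8, 17.6 and 17.1 CPM in the 3 cytoplasmic libraries (log2 fold change 3.40 ± 0.05 (SE), adjusted p = 2.9e-18), and PTPRF, a receptor phosphatase, followed (log2 fold change 2.86 ± 0.05 (SE), adjusted p = 1.6e-17). SLC2A1, the glucose transporter, was higher in the cytoplasm (log2 fold change -1.66 ± 0.07 (SE), adjusted p = 1.4e-13). The outer nuclear membrane is continuous with the endoplasmic reticulum, and whether ribosome-bound RNA stayed with the nuclei was not tested. Of 148 zinc finger genes of the KRAB family, 41 were higher in the nucleus, 21 were higher in the cytoplasm and 86 passed in neither direction (median 0.26). That is 27.7% and 14.2% of them, again a nuclear share near that of all genes, with ZNF614 among the largest nuclear differences (log2 fold change 3.60 ± 0.19 (SE), adjusted p = 1.0e-11) and ZNF777 on the cytoplasmic side (log2 fold change -2.12 ± 0.07 (SE), adjusted p = 3.0e-14). Of 26 genes of cholesterol synthesis, 1 was higher in the nucleus, 13 were higher in the cytoplasm and 12 passed in neither direction (median -1.08). CYP51A1, the lanosterol demethylase, which overlaps 2 genes on its strand, had 7.94, 6.18 and 6.98 CPM in the 3 nuclear and 171, 158 and 165 CPM in the 3 cytoplasmic libraries (log2 fold change -4.55 ± 0.07 (SE), adjusted p = 1.2e-18), and LSS, which makes lanosterol, was the 1 nuclear call (log2 fold change 2.50 ± 0.06 (SE), adjusted p = 8.5e-17).

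Genes that process, export and degrade RNA varied as well. Of 38 genes of the exon junction complex and mRNA export, 8 were higher in the nucleus, 14 were higher in the cytoplasm and 16 passed in neither direction (median -0.52). PNN, an exon junction-associated protein, had 1559, 1448 and 1514 CPM in the 3 nuclear and 241, 220.2 and 248 CPM in the 3 cytoplasmic libraries (log2 fold change 2.67 ± 0.05 (SE), adjusted p = 7.7e-18), and XPO1, the exportin that carries proteins out of the nucleus, was on the same side (log2 fold change 2.27 ± 0.05 (SE), adjusted p = 3.7e-17). ALYREF, which hands mRNA to the export receptor, was higher in the cytoplasm (log2 fold change -2.81 ± 0.08 (SE), adjusted p = 1.5e-15). Of 29 hnRNP genes, 5 were higher in the nucleus, 14 were higher in the cytoplasm and 10 passed in neither direction (median -0.88). HNRNPH1 (log2 fold change 1.82 ± 0.05 (SE), adjusted p = 5.4e-16) lay in the nucleus while the related HNRNPH2 (log2 fold change -3.09 ± 0.07 (SE), adjusted p = 7.9e-17) and the intronless PCBP1 (log2 fold change -3.05 ± 0.05 (SE), adjusted p = 8.3e-18) lay in the cytoplasm. Of 23 genes of the nuclear exosome and its adaptors, 5 were higher in the nucleus, 10 were higher in the cytoplasm and 8 passed in neither direction, with ZFC3H1 (log2 fold change 2.37 ± 0.06 (SE), adjusted p = 7.0e-16) and EXOSC5 (log2 fold change -2.50 ± 0.10 (SE), adjusted p = 3.1e-13) at the ends. ZFC3H1 lost its call over coding transcripts alone (0.53), with 55.6% of its nuclear counts in NMD-annotated transcripts. Of 55 mitotic and centromere genes, 5 were higher in the nucleus, 21 were higher in the cytoplasm and 29 passed in neither direction (median -0.75). In the order given, 21.1%, 17.2%, 21.7% and 9.09% of these lists were higher in the nucleus, beside 30.5% of all genes tested. The shares higher in the cytoplasm were 36.8%, 48.3%, 43.5% and 38.2%, beside 28%. Each list thus had fewer nuclear and more cytoplasmic calls than all genes.

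The interferon-gamma pathway runs from the receptor chains IFNGR1 and IFNGR2 through the kinases JAK1 and JAK2 to transcription factors such as IRF1. Of 19 pathway genes tested, 5 were higher in the nucleus, 3 were higher in the cytoplasm and 11 passed in neither direction. These shares, 26.3% and 15.8%, stand beside 30.5% and 28% of all genes tested, so the nuclear share was near that of all genes. Among the receptor chains, IFNGR1 had 16.5, 19.3 and 18.6 CPM in the 3 nuclear and 23.9, 23 and 26.2 CPM in the 3 cytoplasmic libraries and did not reach the fold threshold, and IFNGR2 was higher in the cytoplasm (log2 fold change -1.09 ± 0.08 (SE), adjusted p = 1.3e-09), a call lost under 4 of the alternatives tried. JAK2 had 49, 43.9 and 50.7 CPM in the 3 nuclear and 19.4, 20.2 and 21.3 CPM in the 3 cytoplasmic libraries (log2 fold change 1.24 ± 0.09 (SE), adjusted p = 6.1e-10), whereas JAK1 had 104, 107 and 109.6 CPM in the 3 nuclear and 150.2, 143 and 151 CPM in the 3 cytoplasmic libraries (log2 fold change -0.47 ± 0.05 (SE), adjusted p = 1.1e-07). Thus JAK2 took a larger share of nuclear RNA and JAK1 a somewhat smaller one, the latter within the fold threshold. IRF1 (log2 fold change -0.38 ± 0.09 (SE), adjusted p = 6.7e-04) stayed within the threshold too. Counted over coding transcripts alone, JAK1 (-1.58) and IRF1 (-1.34) passed it and were higher in the cytoplasm. TYK2, a kinase of the same family, had 811, 777 and 723 CPM in the 3 nuclear and 58, 60.8 and 56.6 CPM in the 3 cytoplasmic libraries (log2 fold change 3.72 ± 0.05 (SE), adjusted p = 8.9e-19). IRF9 (log2 fold change 4.53 ± 0.11 (SE), adjusted p = 3.8e-16) and STAT2 (log2 fold change 2.34 ± 0.06 (SE), adjusted p = 2.8e-16), transcription factors of the type I interferon response, were also higher in the nucleus, and the fifth nuclear call, the phosphatase PTPN6, stayed under 1 CPM in every library.

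**Figure D2:**
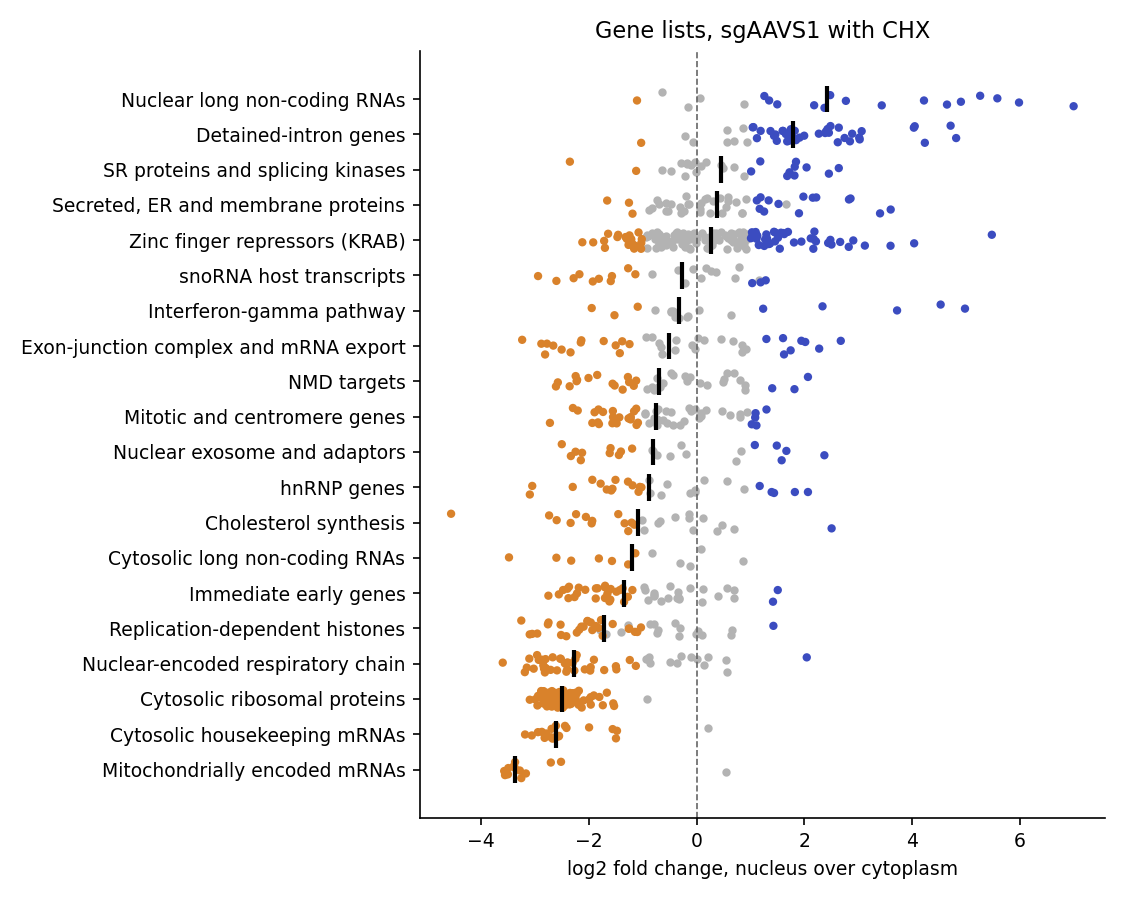
Log2 fold change of nucleus over cytoplasm for each tested gene of 20 lists in control cells with CHX, on the horizontal axis. Blue points were called higher in the nucleus, orange points higher in the cytoplasm and grey points in neither, and the black bar is the list median, from 2.43 for nuclear long non-coding RNAs to -3.36 for mitochondrially encoded mRNAs.

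The gene totals sum all transcripts of a gene, and these differed in kind between the fractions. Transcripts annotated as coding took 65.9% ± 0.389 of nuclear counts and 91.1% ± 0.0303 of cytoplasmic counts of protein-coding genes, against the 24.1% and 2.67% that went to retained-intron transcripts. The comparison was therefore repeated on coding transcripts alone, a choice made after seeing the data, with the same scaling. Of 12297 protein-coding genes with such transcripts, 2717 were higher in the nucleus by all transcripts and 1923 by coding transcripts, of which 1862 were shared. Of the 2717, 706 lost their call and 149 were called higher in the cytoplasm. In the cytoplasmic direction the numbers were 4036 and 5197, and the median log2 fold change moved from -0.31 to -0.74. The split of a gene's reads among its transcripts was estimated by the authors' quantification and carries its error.

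Several genes on the nuclear side by all transcripts changed sides. RBM39, a splicing factor, went from 1.82 over all transcripts to -1.66 over coding transcripts, and its retained-intron transcripts held 79.6% ± 0.347 of the nuclear and 8.71% ± 1.31 of the cytoplasmic counts (mean ± SD, n = 3). UPP1, uridine phosphorylase, went from 1.40 to -1.54, with 85.9% ± 0.498 of the nuclear and 11.8% ± 1.15 of the cytoplasmic counts in such transcripts. HNRNPH1 went from 1.82 to -1.26 and NDUFB1 from 2.04 to -2.90. EXOSC9 went from 1.58 to -2.63, although there the nuclear reads went to an NMD-annotated transcript, 82.4% of nuclear and 15.6% of cytoplasmic counts. TYK2 lost its difference (3.72 to -0.02), with 67.8% ± 1.54 of the nuclear and 9.89% ± 0.605 of the cytoplasmic counts in retained-intron transcripts, and XPO1 (2.27 to 0.19), STAT2 (2.34 to 0.21) and SRSF11 (2.45 to 0.06) fell within the fold threshold. The genes LENG8 (4.71), OGT (3.88), PNN (2.67), LAMA5 (3.26) and JAK2 (1.23) remained higher in the nucleus by coding transcripts alone. The call also held, at a smaller size, for IRF9 (4.53 to 1.32), PAN2 (4.23 to 1.64), CLK2 (2.64 to 1.31) and PTPRF (2.86 to 1.70). Of 47 detained-intron genes with coding transcripts, 39 were nuclear by all and 23 by coding transcripts, while 9 were then higher in the cytoplasm. The calls for ribosomal proteins did not move, with 78 in the cytoplasm both ways.

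**Figure D3:**
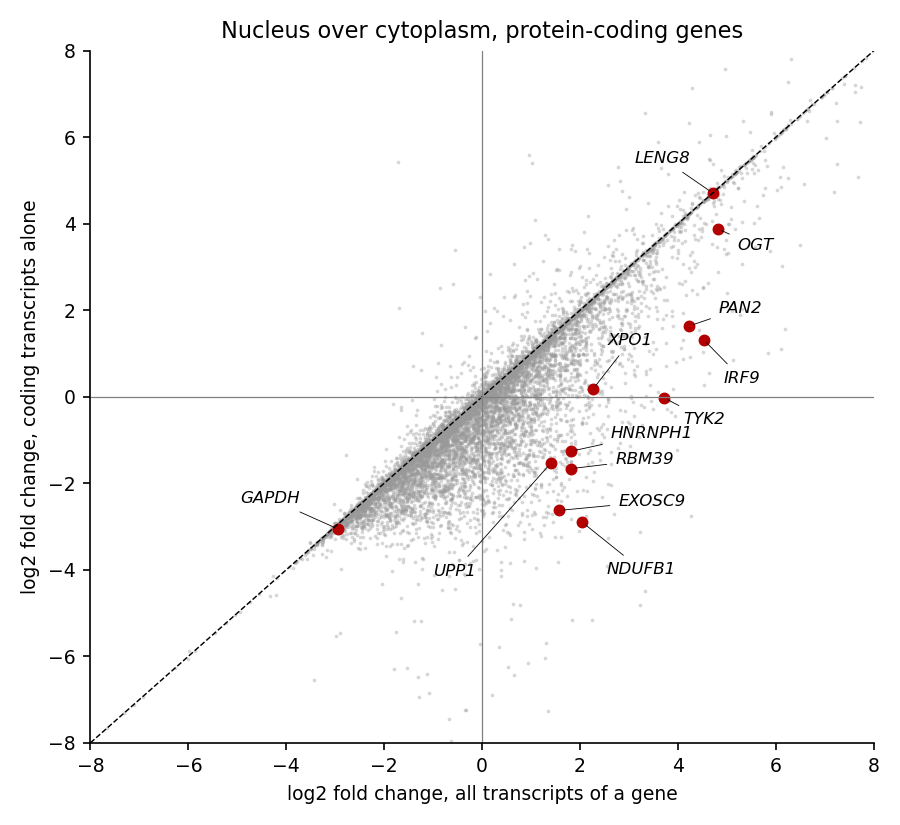
Log2 fold change of nucleus over cytoplasm for protein-coding genes, with all transcripts of a gene on the horizontal axis and coding transcripts alone on the vertical axis. The dashed line marks equal values and 53 genes beyond the axes are not drawn. RBM39, UPP1, HNRNPH1, EXOSC9 and NDUFB1 lie right of 0 and below 0.

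The largest differences sat in genes that are nearly absent from the cytoplasm. By the rule for named genes, the 12 highest included SAPCD1, CDK3, ADAM1A, HNRNPCP1, GNL3LP1 and LMAN1L, all without a count in the cytoplasmic libraries. Taking 3 counts over the cytoplasmic group as the floor, SAPCD1 (17.4 CPM in the nucleus) was at least 1051-fold higher and CDK3, a cyclin-dependent kinase (14.4 CPM), at least 873-fold higher in the nucleus. These folds hold for the counts as assigned to each gene. How far reads shared with other loci set these counts was not tested. YJEFN3 (ENSG00000250067, chr19:19528861-19537581) had 396, 382 and 359 CPM in the 3 nuclear and 0.487, 0.342 and 0.457 CPM in the 3 cytoplasmic libraries (log2 fold change 9.75 ± 0.19 (SE), adjusted p = 2.0e-17), and it overlaps 2 genes on its strand. Its counts lay almost wholly in an NMD-annotated transcript (99.9% in the nucleus). RHBDL1 (ENSG00000103269, chr16:675671-678268), which overlaps no other annotated gene, had 33.8, 32.9 and 25.2 CPM in the 3 nuclear and 0.0336, 0 and 0.0554 CPM in the 3 cytoplasmic libraries (log2 fold change 9.72 ± 0.23 (SE), adjusted p = 2.0e-16). Among genes higher in the nucleus, 47.2% overlap another gene on the same strand, against 39.2% of all tested and 32% of those higher in the cytoplasm, and how shared reads were divided was not tested. At the other end, POC1B-GALNT4, RPS10-NUDT3 and DNAJC25-GNG10 are read-through loci whose reads cannot be told apart from those of their parts, and a copy of MATR3 shares its sequence with the main gene. NDUFA1, a complex I subunit that overlaps no other gene, had 1.07, 0.65 and 1.16 CPM in the 3 nuclear and 11.2, 12 and 11.5 CPM in the 3 cytoplasmic libraries (log2 fold change -3.59 ± 0.19 (SE), adjusted p = 7.1e-12), and ERH, the gene targeted in other cells of the series, had 13.4, 12.3 and 12.1 CPM in the 3 nuclear and 121, 124 and 111 CPM in the 3 cytoplasmic libraries (log2 fold change -3.23 ± 0.07 (SE), adjusted p = 1.3e-16).

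Protein-coding genes on the nuclear side were longer and had more introns. Their mature transcripts had a median of 3851 bases and 11 introns, against 2396 bases and 5 introns on the cytoplasmic side and 3300.5 bases and 8 introns over all protein-coding genes tested. Of 763 genes with mature transcripts of up to 1000 bases, 11.5% were higher in the nucleus and 67.1% in the cytoplasm. Of 1082 genes longer than 8000 bases the shares were 35.3% and 10.9%. The median log2 fold change rose from -1.38 for genes with 1 or 2 introns to 0.75 for genes with 21 or more, and intronless genes stood at -1.75. GC content of the mature transcript had a median of 53.1% on the nuclear and 47.3% on the cytoplasmic side. These are descriptions over genes, which are not independent replicates, and length, intron number and GC content vary together.

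Across genes, the difference between the fractions rose with the retention of a gene's most retained intron. Gene totals include retained-intron transcripts, so intron reads can enter both measures and part of this relation is built in. For 7627 protein-coding genes with at least 3 introns measured by at least 20 spliced reads in the nucleus, the intron with the highest nuclear IR ratio (the share of transcripts that keep an intron, the intron signal over intron signal plus spliced reads) was taken. Genes whose highest ratio was 0.05 or less (65 genes) had a median log2 fold change of -1.91. The median was -0.98 for ratios over 0.1 up to 0.2 (1075 genes), -0.19 for ratios over 0.3 up to 0.5 (2478 genes) and 0.61 above 0.5 (2288 genes). Genes with more introns have more chances of a high maximum. By the median ratio of a gene's introns in place of the highest, the order was not stepwise: genes at or below 0.05 stood at -0.06, those over 0.1 up to 0.2 at -0.19 and those above 0.3 at 0.38.

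**Figure D4:**
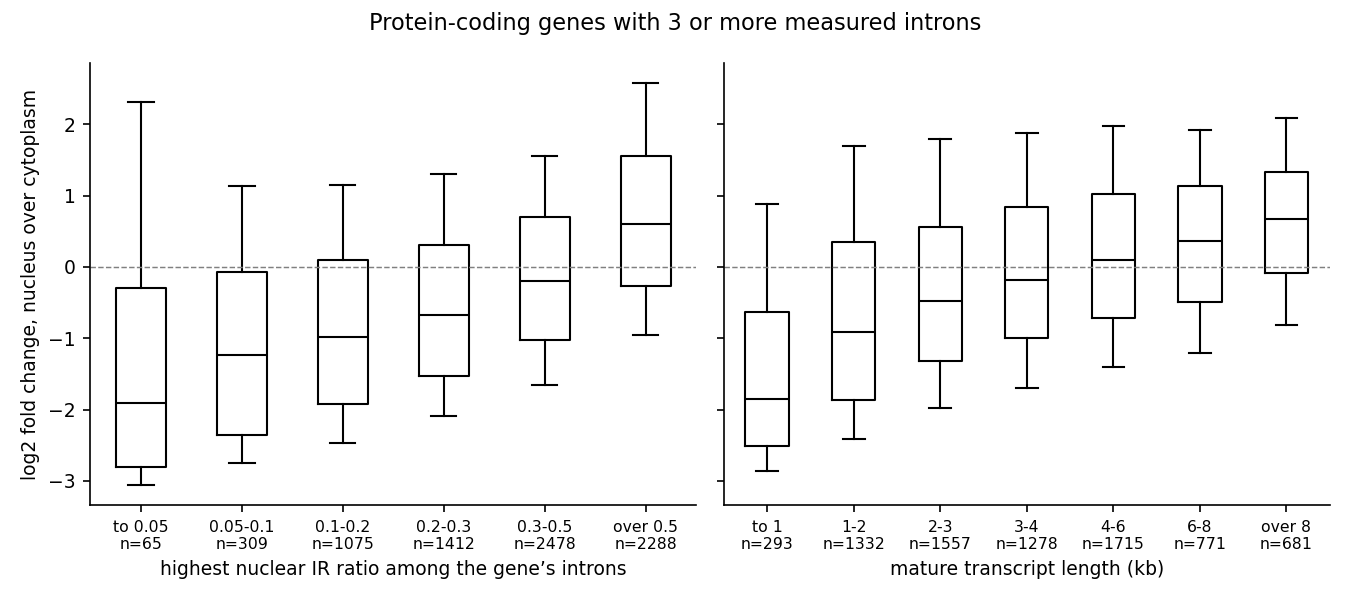
Log2 fold change of nucleus over cytoplasm for protein-coding genes with at least 3 measured introns, by the highest nuclear IR ratio among a gene's introns (left) and by mature transcript length in kilobases (right). Boxes span the quartiles, lines mark medians and whiskers leave out 10% of genes at either end. The median rises from -1.91 to 0.61 across the bins on the left.

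Introns were compared next. For each intron the files give the intron depth, a trimmed mean of coverage across it, and the spliced reads that join its flanking exons, and the IR ratio divides the depth by the depth plus the spliced reads, so that 0 means always spliced and 1 never spliced. Of 112290 introns tested in 10862 genes, 73757 (65.7%) were more retained in the nucleus and 75 (0.0668%) in the cytoplasm. For 72639 of the 73757, every nuclear library had a higher ratio than every cytoplasmic library. The same held for 33147 of the 38458 introns not called, so this separation was not particular to the called introns. Called introns had a median IR ratio of 0.169 in the nucleus and 0.0014 in the cytoplasm, and 26.2% of them were listed at 0 depth in all 3 cytoplasmic libraries. An IR ratio of at least 0.1 was reached by 55496 introns in the nucleus and 3274 in the cytoplasm. The 75 introns called in the cytoplasmic direction were short (median 204 bases against 1643 over all tested), GC-rich (58.1% against 44%), and 57.3% of them contain an annotated exon, against 3.37% of all tested. How far reads of such exons entered the intron signal was not tested, and among introns with no annotated exon 33 were called in this direction. The fit gave all introns of a like abundance the same spread, so these p-values rest on the spread over many introns more than on that of each.

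The following introns are shown for their ends, since these letters are what the splicing machinery reads. Each 5′ end gives 3 bases of exon and 12 of intron, each 3′ end 20 bases of intron and 3 of exon, read from GRCh38 5′ to 3′ on the strand of the gene. Capitals mark the first and last 2 bases of the intron. These 3 were among the introns retained in the nucleus that the naming rule picked.
DDX39B intron 7, 5′ end: cagGTcagttagacg
DDX39B intron 7, 3′ end: cccaccccaccccacaacAGgtg
ACD intron 6, 5′ end: cagGTactgtagagc
ACD intron 6, 3′ end: ccatggtcccctgtccccAGgcc
IFRD2 intron 8, 5′ end: gagGTgcgagggaca
IFRD2 intron 8, 3′ end: ctccaatgctcccattgcAGgag

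All 3 start with GT and end with AG, the ends of most human introns. DDX39B intron 7 (chr6:31531406-31532779, minus strand, 1374 bases), from the detained-intron list, lies in the gene of an mRNA export helicase and had IR ratios of 0.351, 0.335 and 0.349 in the nuclear and 0.00524, 0.00636 and 0.00754 in the cytoplasmic libraries. ACD intron 6 (chr16:67659080-67659228, minus strand, 149 bases), in the gene of the telomere protein TPP1, had 0.741, 0.755 and 0.688 in the nuclear libraries and 0, 0 and 0.00134 in the cytoplasmic libraries. IFRD2 intron 8 (chr3:50288938-50289254, minus strand, 317 bases) had 0.373, 0.453 and 0.368 in the nucleus and was listed at 0 in the cytoplasm. Thus in ACD most nuclear transcripts kept the intron and almost no cytoplasmic transcript did, and the fractions overlap for none of the 3. For the other introns that the rule placed highest, in BCKDK, DDX39A, ATXN2L, IMPDH1, STARD3, NGDN, RRP9 and PHB2, the mean nuclear ratio lay between 0.232 and 0.497, with 7 of the 8 listed at 0 in the cytoplasm and PHB2 at 0.000108. Also on the detained-intron list, METTL3 intron 7 had mean ratios of 0.24 in the nucleus and 0.00303 in the cytoplasm and lies in the gene of the enzyme that methylates adenosine in mRNA. Of 746 introns tested in the 48 genes of that list, 385 (51.6%) were called in the nucleus, a share below the 65.7% of all tested.

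Minor introns, which the U12-type spliceosome removes slowly, were looked for by their first 8 bases, exactly GTATCCTT or ATATCCTT on the strand of the gene. These letters begin 578 of the 233113 introns in the files (0.248%). These 3, which met the same limits for reads, were chosen after their values were seen and follow with the 8 bases in capitals at the 5′ end and the last 2 at the 3′ end.
PSMA1 intron 5, 5′ end: gcaGTATCCTTttta
PSMA1 intron 5, 3′ end: agctcgttaaccagtctaAGaga
ALG3 intron 7, 5′ end: accATATCCTTtaaa
ALG3 intron 7, 3′ end: tggccttgaccaccgcatACaga
NOL11 intron 14, 5′ end: actGTATCCTTtgac
NOL11 intron 14, 3′ end: gattttcctttagtcctaAGtaa

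Of 405 such introns tested, 321 (79.3%) were more retained in the nucleus and the others were not called, beside 65.6% of the others. Their median nuclear ratio was 0.136 against 0.0979, and the cytoplasmic median 0.00289 against 0.000279. Among introns with at least 50 spliced reads in each fraction and no warning, 38 of 43 minor introns and 62.9% of the others were called. PSMA1 intron 5 (chr11:14513888-14514402, minus strand), in a proteasome subunit, had 0.56, 0.568 and 0.556 in the nucleus and 0.00935, 0.00677 and 0.0111 in the cytoplasm. ALG3 intron 7 (chr3:184242958-184243553, minus strand), in a glycosylation enzyme, starts with AT and ends with AC and had 0.495, 0.466 and 0.372 and 0.0113, 0 and 0.0106. NOL11 intron 14 (chr17:67738356-67738931, plus strand), in a nucleolar protein, had 0.232, 0.265 and 0.227 and 0.00311, 0.00342 and 0.0035.

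**Figure D5:**
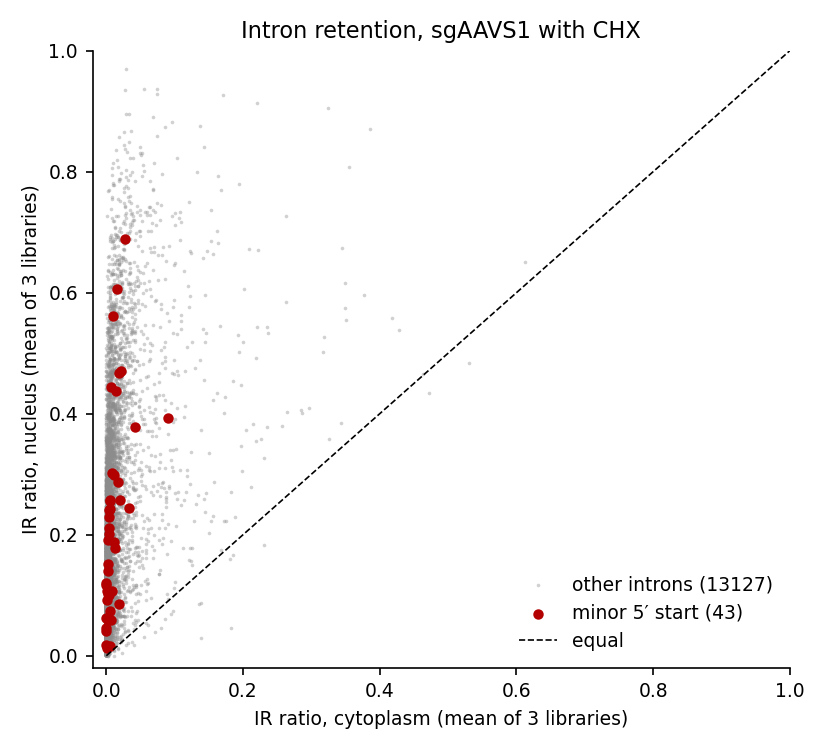
Mean IR ratio in the nucleus (vertical) against the cytoplasm (horizontal) for 13170 introns of control cells with CHX that had at least 50 spliced reads in each fraction, contain no annotated exon and carried no warning. Red points are the 43 introns with a minor start, the dashed line marks equal ratios, and nearly all introns lie above it, close to a cytoplasmic ratio of 0.

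Few introns stayed in cytoplasmic transcripts. Under the same limits, 143 introns had a cytoplasmic ratio of at least 0.1, with a median length of 131 bases and GC content of 60.9%. No intron called higher in the cytoplasm met the limits for naming, so the examples were chosen after their values were seen, as those with the highest cytoplasmic ratio. CHKB intron 6 (chr22:50580272-50580357, minus strand, 86 bases), in choline kinase beta, had 0.647, 0.676 and 0.631 in the nucleus and 0.67, 0.557 and 0.613 in the cytoplasm. DPP7 intron 1 (chr9:137114577-137114646, minus strand, 70 bases), in a dipeptidyl peptidase, had 0.474, 0.501 and 0.475 and 0.533, 0.538 and 0.523. ZNF800 intron 5 (chr7:127371815-127373341, minus strand, 1527 bases), the last of its gene, had 0.41, 0.42 and 0.472 and 0.45, 0.504 and 0.463. None of these 3 passed the test with CHX, with log2 fold changes of 0.23 ± 0.24, -0.28 ± 0.15 and -0.22 ± 0.24. With DMSO, CHKB intron 6 had mean ratios of 0.708 in the nucleus and 0.443 in the cytoplasm. Its difference moved towards the cytoplasm with CHX (edgeR, -1.40 ± 0.38, adjusted p = 0.031), a kind of call that was unstable. DPP7 intron 1 changed by less than the fold threshold (edgeR, -0.89 ± 0.21, adjusted p = 0.0065), and ZNF800 intron 5 did not pass. The ends of the 3 introns are as follows.
CHKB intron 6, 5′ end: aagGTaggagaaggc
CHKB intron 6, 3′ end: acctcaccccattcccccAGgga
DPP7 intron 1, 5′ end: gggGTgagtggcggc
DPP7 intron 1, 3′ end: aggttcgcgtccccccacAGccc
ZNF800 intron 5, 5′ end: ctgGTgaggaacagt
ZNF800 intron 5, 3′ end: ttattcccatttctcctcAGata

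The genes JAK2, PIK3C2A and HSPA4L were followed through their introns, since the study named them. In JAK2, 13 introns were tested, 5 were called, all towards the nucleus, and the nuclear ratio ran from 0.00924 to 0.413 (intron 16) while no cytoplasmic ratio exceeded 0.028. In PIK3C2A, 25 introns were tested, 11 were called, all towards the nucleus, and the nuclear ratio ran from 0.0034 to 0.5 (intron 9) while no cytoplasmic ratio exceeded 0.0776. In HSPA4L, 16 introns were tested, 5 were called, all towards the nucleus, and the nuclear ratio ran from 0.00735 to 0.454 (intron 9) while no cytoplasmic ratio exceeded 0.0163. The median nuclear ratios over the tested introns of these genes were 0.0287, 0.046 and 0.0432. Over all introns tested the median was 0.098, and 65.7% were called towards the nucleus. The medians and the shares of introns called in these genes were thus below those of all introns. The main annotated transcripts of the genes have 24, 32 and 18 introns, so not all were tested. At the level of the gene, PIK3C2A, a lipid kinase, had 266, 249 and 287 CPM in the 3 nuclear and 107, 97.1 and 103 CPM in the 3 cytoplasmic libraries (log2 fold change 1.38 ± 0.05 (SE), adjusted p = 6.9e-14), and HSPA4L, a chaperone, had 136, 139 and 145 CPM in the 3 nuclear and 119, 108 and 116 CPM in the 3 cytoplasmic libraries (log2 fold change 0.29 ± 0.05 (SE), adjusted p = 7.2e-05), a difference below the fold threshold that turned to -0.42 with an offset for transcript length.

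Finally, the difference between the fractions with CHX was set against that with DMSO, which shares no library with it. Of the 17055 genes, 1145 (6.71%) moved towards the nucleus with CHX and 1346 (7.89%) towards the cytoplasm, by the test of the difference itself. A difference here is the log2 fold change with CHX minus that with DMSO. With all 24 libraries the numbers were 775 and 1819, with library totals in place of TMM 693 and 1939, and with scaling on protein-coding genes 817 and 1686, so the balance between the directions depends on the scaling. The median difference over all genes was 0.03 with TMM on all tested genes of the 12 libraries and -0.15, -0.19 and -0.11 under these 3 in turn. The median difference was 0.14 for ribosomal protein genes, 0.22 for mitochondrially encoded mRNAs and 0.01 for housekeeping mRNAs. Among the nuclear long non-coding RNAs, NEAT1 differed by 0.01 ± 0.07 (SE), whereas MALAT1 (difference 0.51 ± 0.10, adjusted p = 5.2e-04) and TUG1 (difference 0.51 ± 0.07, adjusted p = 1.1e-05) differed by more, though within the fold threshold. Levels set side by side between treatments within a fraction are descriptions, and only the difference between the fractions was tested.

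Host transcripts of small nucleolar RNAs had the largest median difference, in size, among lists with more than 3 tested genes. In the non-coding hosts the exons serve mainly to carry the snoRNA-bearing introns, and many of these hosts are known NMD targets. The list also holds protein-coding genes, RC3H2 among them. Of 24 tested, 13 moved towards the cytoplasm with CHX and 1 (RC3H2, named after its values were seen) towards the nucleus, and the median difference was -1.24 on the log2 scale against 0.03 over all genes. SNHG12 stood at 28.1 ± 0.574 CPM in the nucleus and 32.5 ± 0.484 CPM in the cytoplasm with CHX, and at 206 ± 12.2 and 11.5 ± 0.674 CPM with DMSO (mean ± SD, n = 3 each), so it was lower in the nucleus and higher in the cytoplasm with the drug (difference -4.36 ± 0.09, adjusted p = 5.5e-15). SNHG1 showed the same pattern, with 487 ± 33.4 and 295 ± 9.92 CPM with CHX and 1498 ± 89 and 88.2 ± 2.99 CPM with DMSO (difference -3.37 ± 0.07, adjusted p = 2.0e-15). The level of GAS5 in the nucleus was 1084 ± 50.8 CPM with DMSO and 242 ± 3.5 CPM with CHX, beside 234 ± 6.9 and 229.7 ± 1.82 CPM in the cytoplasm (difference -2.13 ± 0.06, adjusted p = 3.0e-13). SNHG1 and GAS5 were chosen after their values were seen.

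A list of other genes known as NMD targets followed in direction. Of 40 tested, 10 moved towards the cytoplasm, and these were all the calls (median difference -0.38). GADD45A, a stress-induced growth arrest gene and a well-known NMD target, had 138, 146 and 151 CPM in the 3 nuclear and 869, 859.7 and 855 CPM in the 3 cytoplasmic libraries with CHX, and 69.8 ± 4.95 CPM in the nucleus and 74.2 ± 6.91 CPM in the cytoplasm with DMSO. Its log2 fold change of nucleus over cytoplasm was -0.09 with DMSO and -2.57 with CHX (difference -2.48 ± 0.07, adjusted p = 8.8e-14). Its relative GADD45B, chosen after its values were seen, went from 10.2 ± 0.477 to 128 ± 6.06 CPM in the cytoplasm and from 9.98 ± 0.555 to 27.5 ± 1.33 CPM in the nucleus (difference -2.18 ± 0.09, adjusted p = 1.2e-11). Transcripts annotated as NMD targets took 4.62% ± 0.0284 of cytoplasmic counts with CHX and 2.94% ± 0.0595 with DMSO, and 6.04% ± 0.0488 and 5.52% ± 0.0856 of nuclear counts, within protein-coding genes. Immediate early genes gave 8 of 49 towards the cytoplasm, and KRAB zinc finger genes 26 of 148 (median difference -0.49), with ZNF57 the example named by the rule (difference -1.55 ± 0.20, adjusted p = 4.2e-06). Of the 12 cytosolic long non-coding RNAs tested, 6 moved towards the cytoplasm and 0 towards the nucleus. Over all genes tested, 7.89% moved towards the cytoplasm.

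A set of genes moved towards the nucleus instead. PIK3C2A had 101 ± 1.99 CPM in the nucleus and 149.8 ± 9.29 CPM in the cytoplasm with DMSO, and 267 ± 19 and 102 ± 5.13 CPM with CHX (difference 1.95 ± 0.07, adjusted p = 2.5e-12). JAK2 (difference 1.22 ± 0.13, adjusted p = 3.3e-07) and HSPA4L (difference 1.25 ± 0.08, adjusted p = 5.3e-10) went the same way. The level of XPO1 was 824 ± 15.1 CPM with DMSO and 2498 ± 104 CPM with CHX in the nucleus, beside 459 ± 25 and 516 ± 18.5 CPM in the cytoplasm (difference 1.43 ± 0.06, adjusted p = 1.7e-11). In contrast, MAT2A, which makes S-adenosylmethionine and whose detained intron answers to its supply, was lower in both fractions with CHX, 322 ± 12.5 against 868 ± 36.7 CPM in the nucleus and 44.8 ± 1.07 against 579 ± 38.7 CPM in the cytoplasm (difference 2.26 ± 0.07, adjusted p = 3.1e-13, chosen after its values were seen). Of the secreted, endoplasmic reticulum and membrane proteins, 7 of 48 moved towards the nucleus and 2 towards the cytoplasm, beside 6.71% and 7.89% of all genes tested. PTPRF lay at 120.3 ± 0.475 CPM in the cytoplasm with DMSO and 36.9 ± 0.898 CPM with CHX (difference 2.05 ± 0.07, adjusted p = 1.5e-12), while SLC2A1 moved towards the cytoplasm (difference -1.15 ± 0.09, adjusted p = 1.1e-08). Of detained-intron genes, 4 moved towards the nucleus and 6 towards the cytoplasm of 48, shares not far from the 6.71% and 7.89% of all genes tested.

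Intron retention changed call between the treatments at few sites. Of 112290 introns, 360 (0.321%) moved towards the nucleus with CHX and 663 (0.59%) towards the cytoplasm. These numbers were unstable. With DESeq2 they were 7 and 33, leaving out any 1 CHX culture gave 100 to 137 and 320 to 410, leaving out DMSO replicate 3 gave 189 and 443, and without the culture term they were 194 and 356. The share of boundary reads was 38.8 to 40.6 per 100 spliced reads in the nuclear DMSO libraries and 7.12 to 7.25 in the cytoplasmic ones, ranges close to those with CHX.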

How the data were processed

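Poly(A) RNA-seq of nuclear and cytoplasmic fractions of control cells (12 libraries, 3 per fraction and treatment) was analysed. The authors trimmed reads with fastp (0.23.4 per the submitters' processing notes), aligned them to GRCh38 with STAR, quantified transcripts with salmon in an nf-core pipeline against an Ensembl annotation, and deposited estimated counts, TPM values and effective lengths for each transcript of all libraries. Per the file headers, the intron files, deposited 1 for each library by the authors, hold IRFinder output: coverage signal over each intron (intron depth), counts of spliced and boundary reads, and the IR ratio, a fraction. The strand setting of the gene counting is not given in the sources used here.

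Estimated counts of 252894 transcripts were summed to 62754 genes and rounded. Genes were tested in edgeR 4.0.16 (R 4.3.3) by the quasi-likelihood test on the 12 libraries, with a term for each culture, 1 coefficient for nucleus over cytoplasm per treatment, TMM scaling and the filter filterByExpr with a minimum count of 10. The thresholds for a call were an adjusted p (Benjamini-Hochberg) of 0.05 and a log2 fold change of 1 in size. Introns with a mean depth of at least 1 and a mean depth plus spliced reads of at least 10 were tested by intron depth relative to spliced reads in the same tool, and a call also needed an IR ratio of 0.05 in the higher group. The intron fit found no spread of its own for single introns (infinite prior degrees of freedom), so the library values are given first. The difference between CHX and DMSO was tested as an interaction. Total counts per library set the precision, 49705191 to 72946068 in the cytoplasm and 27849344 to 31138239 in the nucleus with CHX.

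Both fractions of a culture carry its number in the labels, so they were treated as paired. The deviations of same-numbered fractions from their group means hardly correlated (r over genes of -0.0028, 0.00184 and 0.00244 with CHX and 0.0272, 0.0237 and 0.0422 with DMSO). Genes were named by a rule: the 12 highest and 12 lowest calls with a mean of at least 5 CPM, up to 3 calls per list and direction with at least 1 CPM, genes the study followed, and the 6 highest and 6 lowest differences between treatments. Introns were named at an IR ratio of at least 0.2 with at least 50 spliced reads in each fraction. MALAT1, NEAT1, TUG1, MT-ND6, RPS29, VCL, OIP5-AS1 and the markers of other cell types were named outside this rule, after their values were seen. A few of the genes and introns so named are not reported here. The lists and the comparison were chosen with earlier results of these data known. Intron ends were read from the GRCh38 genome. The scripts were tested on simulated data. Alternatives were other scalings, filters, tools, library sets and the fit without the culture term, and the closing section gives their effect. Columns for the cells with the other guide entered the fit of all 24 libraries and were otherwise not used.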

Additional observations from a re-analysis of the deposited data

Results flagged for a closer look

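These genes and introns are those whose difference between nucleus and cytoplasm changed most between CHX and DMSO, by the test of the change itself (edgeR, adjusted p at most 0.05), on the log2 scale. TNFRSF10D, a decoy receptor for the death ligand TRAIL, moved towards the nucleus by 3.22, at 188 against 20.3 CPM with CHX and 145 against 146 CPM with DMSO in nucleus and cytoplasm. RPS10-NUDT3, a read-through locus, moved by 5.35, at 1.62 against 22.2 CPM with CHX and 0.0394 against 23.2 CPM with DMSO. The other genes that moved towards the nucleus had few cytoplasmic counts. CDK3 changed by 7.05, KCNIP2 by 3.95, OR2B6 by 3.71 and AVIL by 3.30, all under 1 CPM in the cytoplasm with either treatment, so that these sizes depend on the prior count of the fit. The 4 lost their call under at least 1 alternative.

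Towards the cytoplasm, SNHG12 changed by -4.36 and overlaps snoRNA genes on its strand. TERT, the catalytic subunit of telomerase, changed by -4.13, at 0.866 against 2.12 CPM with CHX and 7.18 against 1 CPM with DMSO in nucleus and cytoplasm. The levels of HERC2P3 (-4.70), NPIPA2 (-4.57), TBC1D3L (-4.23) and BMS1P4-AGAP5 (-4.23) are uncertain, since these belong to families of near-identical copies or read-through loci. NPIPA2 had no count in the cytoplasm with DMSO, and its size depends on the prior count.

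Among introns, those that moved towards the nucleus included TBC1D23 intron 6 (6.48, ratios 0.214 and 0 with CHX and 0.0441 and 0.00346 with DMSO in nucleus and cytoplasm) and XPOT intron 7 (6.12, ratios 0.112 and 0 with CHX and 0.00975 and 0.00186 with DMSO in nucleus and cytoplasm). Those that moved towards the cytoplasm were PALD1 intron 13 (-8.79, ratios 0 and 0.0108 with CHX and 0.0623 and 0.00236 with DMSO in nucleus and cytoplasm), RAC3 intron 3 (-6.88, ratios 0.0308 and 0.00112 with CHX and 0.238 and 0 with DMSO in nucleus and cytoplasm) and TTLL12 intron 7 (-6.38, ratios 0.0176 and 0.0404 with CHX and 0.336 and 0.0142 with DMSO in nucleus and cytoplasm). All 5 are shorter than 120 bases, and most of these ratios rest on a depth of a few reads in at least 1 fraction.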

How the results depend on the processing

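The counts of genes on either side kept within 1.5 times of those reported under all alternatives tried: leaving out each CHX culture gave 4848 to 4929 genes higher in the nucleus and 4679 to 4737 in the cytoplasm, DESeq2 gave 5596 and 4138, and without the replicate block (the culture term) 5331 and 4819. For the change between treatments, library totals in place of TMM gave 693 genes towards the nucleus and 1939 towards the cytoplasm, all 24 libraries 775 and 1819, and scaling on protein-coding genes 817 and 1686. For introns higher in the cytoplasm, DESeq2 gave 47 and introns with no annotated exon 33. Intron changes between treatments were unstable: 194 and 356 without the replicate block, 1059 towards the cytoplasm with boundary reads as the signal, 7 and 33 with DESeq2 (chosen after seeing the data), and 100 to 388 towards the nucleus and 320 to 563 towards the cytoplasm when 1 culture was left out. The cause of these changes was not tested. By deposited TPM values, long non-coding genes took 6.08% of the nucleus and 1.91% of the cytoplasm, retained-intron transcripts 31.8% and 3.55%, NMD transcripts 5.5% and 4.05%, and mitochondrial mRNA 1.15% and 6.01%, since TPM weighs short transcripts more. On coding transcripts alone, a choice made after seeing the data, the sign turned for EXOSC9 (-2.63), HNRNPH1 (-1.26), KIF20B (-0.93), NDUFB1 (-2.90), PTBP2 (-0.49), RBM39 (-1.66), TYK2 (-0.023) and UPP1 (-1.54). With an offset for transcript length it turned for NDUFB1 (-1.36), H2BC15 (-0.13) and HSPA4L (-0.42). Uncalled introns turned when 1 culture was left out, CHKB intron 6 between -0.012 and 0.41 and APBA3 intron 2 between -0.065 and 0.12. Of 1927 refits of 130 named genes, 1860 kept direction and call and 53 lost the call. An intron of few reads can be listed at 0 in the cytoplasm without being absent.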

Other observations

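Classes of genes outside the lists also lay on the nuclear side. Of 240 loci annotated only as to be experimentally checked, 179 were higher in the nucleus and 14 in the cytoplasm (median log2 fold change 3.74). Of 500 processed pseudogenes, the numbers were 249 and 156 (median 2.00). Such loci can lie inside introns of other genes or share sequence with a parent gene, and how the reads were divided was not tested.

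Position within the gene went with retention. Of first introns tested, 74.3% were more retained in the nucleus, of last introns 76.2% and of inner introns 59.5%. BIRC6 intron 50, in a large inhibitor of apoptosis, had a mean IR ratio of 0.559 in the nucleus and 0.418 in the cytoplasm with CHX, and 0.0527 and 0.0798 with DMSO. The fractions with CHX differed by less than the fold threshold (log2 0.83 ± 0.26), and the change of that difference between treatments did not pass the test (edgeR, 1.43 ± 0.54, adjusted p = 0.33). The change within a fraction was not tested. This intron was chosen after its values were seen.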
